A study of Bos taurus and Ovis aries and Capra hircus with 27 samples.

Results

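Goat gene models for collagens and collagen-like proteins were described in heart, liver and kidney. A model belonged to the set if its identifier stood in the goat expression table without a copy suffix and its deposited protein held at least 15 consecutive triplets of which the first residue was glycine. This rule used no expression value and gave 49 models of 22131 goat identifiers, or of 17139 that had a protein and no copy suffix. The series held 27 libraries of 3 ruminant species, and the 9 goat libraries were used here, 3 for each of heart, liver and kidney. The goats were of a strain labelled indigenous and about 3 years old, and the study's methods describe unrelated adult females. By their labels the groups differed in tissue, with no treatment and no altered allele. The paper states that the goat heart samples used here are duplicates of samples it deposited elsewhere. Whether the heart libraries were prepared or processed apart from the others was not tested. Values are FPKM, fragments per kilobase of transcript scaled to the mapped fragments of the library, a level per transcript length. The sum of FPKM over all goat identifiers ranged from 574638 to 828807 per library, higher in the heart libraries than in the others, and depth per library was not known from the table.

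Collagens are proteins of 3 chains wound around one another, and glycine at the start of each triplet is the residue that fits inside that helix. Fibrillar collagens form the tension-bearing fibrils of connective tissue, type IV collagens form the network of basement membranes, and collagens with von Willebrand factor A domains form beaded filaments or sit on fibril surfaces. The same helix also serves as a stalk in secreted and membrane proteins of innate immunity, including C1q-domain proteins, collectins and scavenger receptors. In heart, collagens hold the muscle bundles, in kidney they underlie filtration and tubules, and in liver they are sparse outside the vessels and portal tracts.

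The identifiers carried cattle (31 members) or human (18 members) protein codes, not gene symbols, and the files used here did not pair them with names. The members were therefore grouped by the domains that short residue patterns found in their own proteins. A fibrillar C-terminal domain marked 7 members, the type IV domain 4, a von Willebrand A domain 7 (of these 2 also with a Kunitz domain), an endostatin domain 2 and a pattern of transmembrane collagens 3. Of the non-collagen folds, a C1q domain marked 10 members, a C-type lectin domain 4, a scavenger receptor domain 3 and an EMI domain 3. For 6 members no pattern was found. The fibrillar, type IV, endostatin, EMI and transmembrane patterns occurred in as many of the 18260 deposited proteins as there were members of that class, whereas a von Willebrand A pattern occurred in 192, a C-type lectin pattern in 39, a C1q pattern in 23 and a scavenger receptor pattern in 18. The tissue labels could not be checked against marker genes, since no symbol was matched.

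The helical stretches differed by class in a way that the rule did not set. The fibrillar models had 2 to 5 runs of at least 4 triplets, of which the longest held 207 to 345 triplets, and 60.2 to 78.4% of the residues lay in such runs. The type IV models held more triplets, 426 to 440 against 320 to 361, broken into 24 to 28 runs of which the longest had 39 to 45 triplets. The von Willebrand A models kept their triplets in a middle or late stretch that took 8.20 to 42.4% of proteins of 986 to 3171 residues. Of the C1q models, 2 of 277 and 244 residues had a longest run of only 16 triplets, just inside the rule. Proline stood at the third position of 30.5 to 43.9% of the fibrillar triplets and 42.8 to 53.9% of the type IV triplets. In GOAT_ENSBTAP00000044911, a model with no pattern, proline stood at the middle position of only 2.38% of triplets, and this model was listed at 0 in all 9 libraries.

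**Figure D1:**
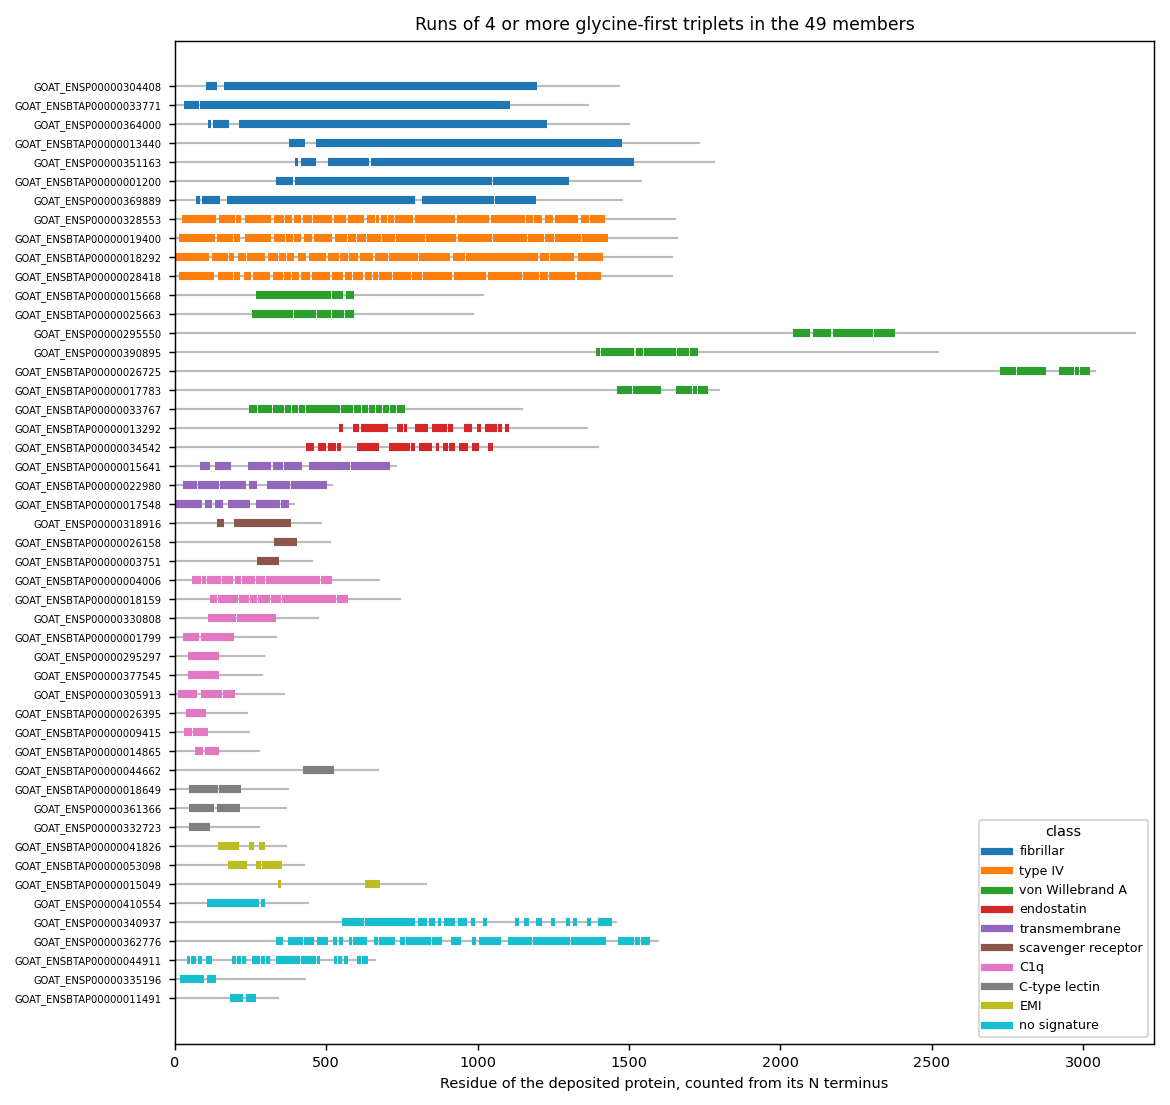
Position of every run of 4 or more triplets (coloured bars, 1 colour per class) along the deposited protein of each of the 49 members (grey lines, length in residues on the x axis). The fibrillar models show a long bar and the type IV models 24 to 28 short ones. The scavenger receptor, lectin and C1q proteins have 238 to 745 residues, and runs take up to 65.9% of the residues of a C1q model.

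Levels of the members spanned from 0 to over 1000 FPKM. Summed over the 49 members, FPKM was 318 ± 20.4 in heart, 455 ± 75.6 in liver and 2464 ± 233 in kidney (SD, n = 3 libraries), or 0.0389%, 0.0769% and 0.396% of all FPKM. In kidney 80.2% of that sum came from 2 C1q models that lie side by side on scaffold 130, against 21.0% in heart and 28.5% in liver. Without them the sum was 250 ± 13.8 in heart, 323 ± 53.9 in liver and 488 ± 175 in kidney. Leaving out the C1q class, the highest sum was the fibrillar one in heart, the endostatin one in liver and the scavenger receptor one in kidney. The fibrillar sum was 89.9 ± 9.07 in heart, 31.6 ± 5.28 in liver and 60.0 ± 25.8 in kidney, while the endostatin sum was 124 ± 60.2 in liver against 21.7 ± 13.8 in heart and 13.7 ± 6.81 in kidney. The scavenger receptor sum was 15.01 ± 6.88 in heart, 66.3 ± 34.1 in liver and 220 ± 152 in kidney, with the first kidney library at 59.8 and the others at 363 and 237. The sum of the 4 type IV models found was low in all tissues, at 1.96 ± 0.107 in heart, 2.17 ± 0.729 in liver and 2.49 ± 1.1 in kidney. Type IV genes that the rule and pattern did not find are not in this sum. The level of type IV collagen as a whole is therefore not known here. Class sums cover only the models found by the rule and patterns. No protein was held for 3915 of the 22131 goat identifiers, so further collagen genes may be missing from them. Fewer cells of a type and less RNA per cell cannot be told apart in bulk tissue, and this holds for every value given here.

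**Figure D2:**
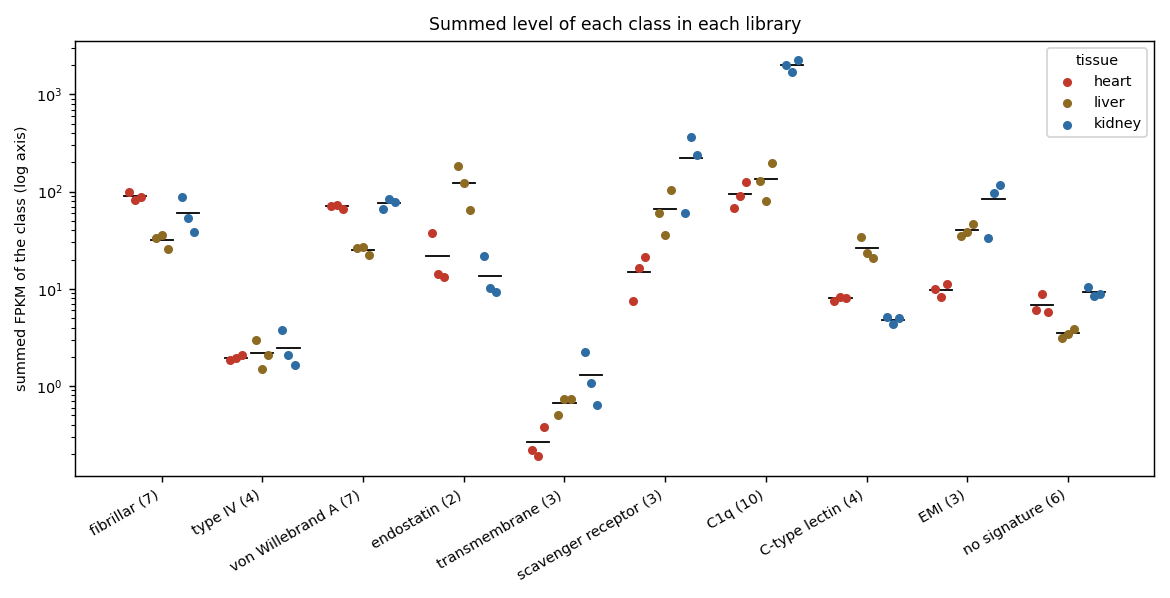
Summed FPKM of each class (number of models in brackets) in each of the 9 libraries on a log axis, with points for libraries and a line at the mean of 3. The C1q sum in kidney lies between 1720 and 2235 FPKM, the endostatin sum is highest in liver, and the fibrillar and von Willebrand A sums are lowest in liver.

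**Figure D3:**
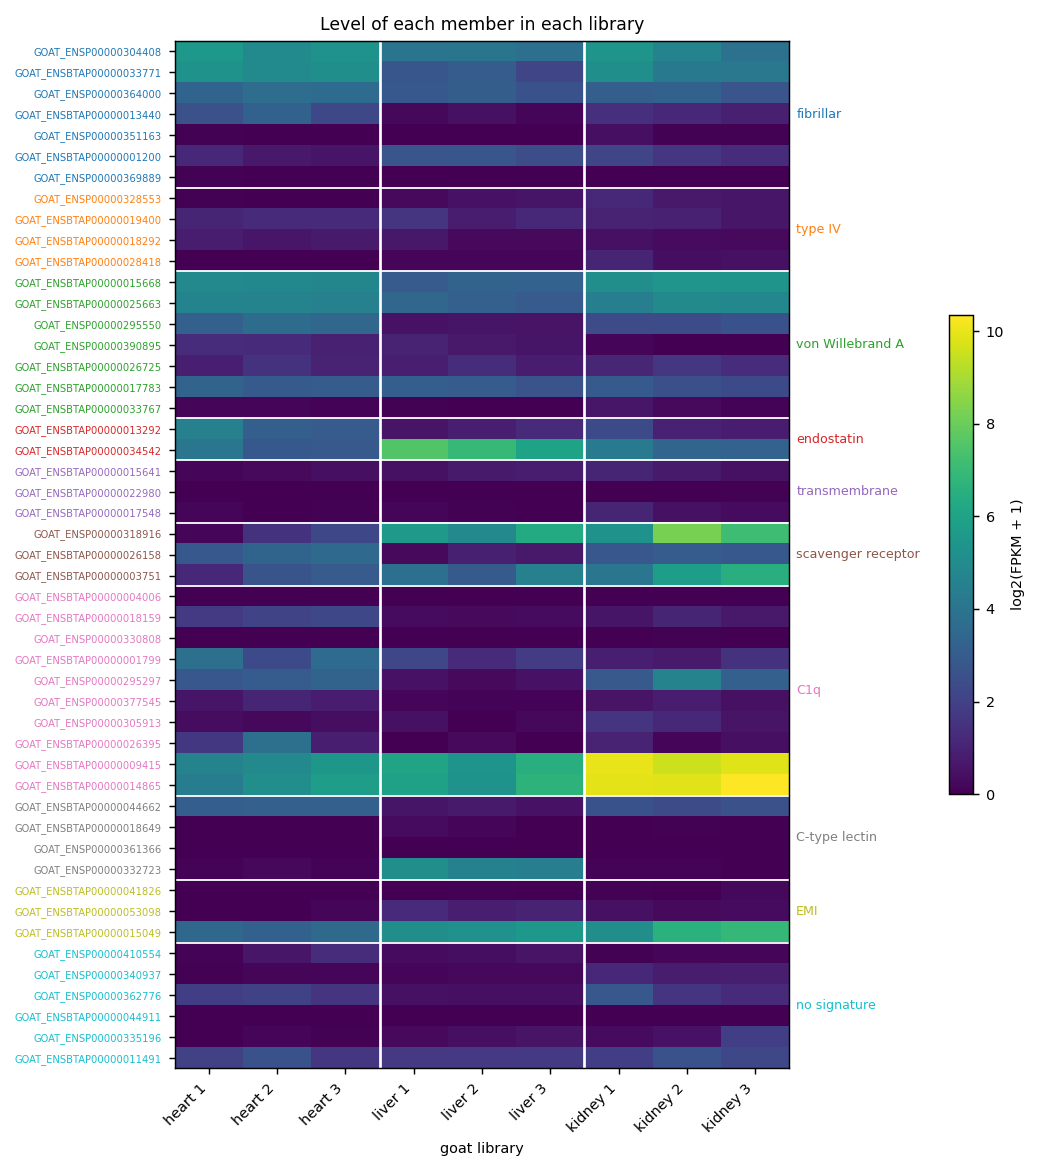
Level of each of the 49 members (ordered by class and longest run) in the 9 libraries, as log2(FPKM + 1). Most members are dark in all tissues. The brightest cells are the 2 C1q models in kidney, followed by the scavenger receptor model GOAT_ENSP00000318916 in kidney (mean 161 FPKM), the endostatin model GOAT_ENSBTAP00000034542 in liver (mean 122.9 FPKM) and the EMI model GOAT_ENSBTAP00000015049 in kidney (mean 82.7 FPKM).

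Of the 49 members, 34 were above 0.5 FPKM in at least 3 libraries and were tested with the other genes. Of the remaining 15, 9 were never above 0.5 FPKM, 6 were above it in 1 or 2 libraries, and the highest value among them was 2.83 FPKM. In 4 of the 34, all libraries above 0.5 FPKM were of 1 tissue, so that only the tissue where they were high let them in. Differences are log2 fold changes of FPKM + 1 from limma across 13634 goat genes, called at a Benjamini-Hochberg adjusted p of 0.05. On this scale the changes of low genes are understated.

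Between heart and liver 23 of 34 members were called, 16 higher in heart and 7 higher in liver. Over all genes tested 49.2% were called, 29.6% higher in heart and 19.6% higher in liver, and the members' share was 67.6%. Under median ratio scaling the split of the members was 15 and 11, under quantile normalization 15 and 9, and with libraries scaled to the same sum of FPKM 14 and 10. Of all genes called, 50%, 56.4% and 40.7% were higher in heart under these scalings, against 60.2% as deposited. The median difference of the members was 0.38 beside 0.10 over all genes. Libraries of the tissues did not overlap for 24 of the 34 members (70.6%), beside 58.5% of all genes.

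Between heart and kidney 18 members were called, 8 higher in heart and 10 higher in kidney. The members' share of 52.9% stood beside 63.2% of all genes called, of which 17.9% were higher in heart and 45.3% higher in kidney. The values of all genes were shifted toward kidney in this contrast, with a median of -0.55, whereas the members' median was 0.01. Scaling each library by its median ratio moved the all-gene median to -0.03. The split of the members became 15 higher in heart and 6 higher in kidney, and quantile normalization gave 14 and 7. Of all genes called, 50.5% and 48.3% were higher in heart under these scalings, against 28.3% as deposited. Libraries did not overlap for 21 members (61.8%), beside 71.8% of all genes.

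Between liver and kidney 19 members were called, 5 higher in liver and 14 higher in kidney, a share of 55.9% beside 65% of all genes, of which 13.4% were higher in liver and 51.6% in kidney. The median was -0.51 for the members and -0.69 for all genes. Under median ratio scaling the split was 8 higher in liver and 9 in kidney, and under quantile normalization 8 and 10. Of all genes called, 51.9% and 42.1% were higher in liver under these scalings, against 20.6% as deposited. For 21 of 34 members (61.8%) the libraries did not overlap, beside 67.2% of all genes. Because of this shift, some differences against kidney are also given below relative to the all-gene median or under median ratio scaling.

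**Figure D4:**
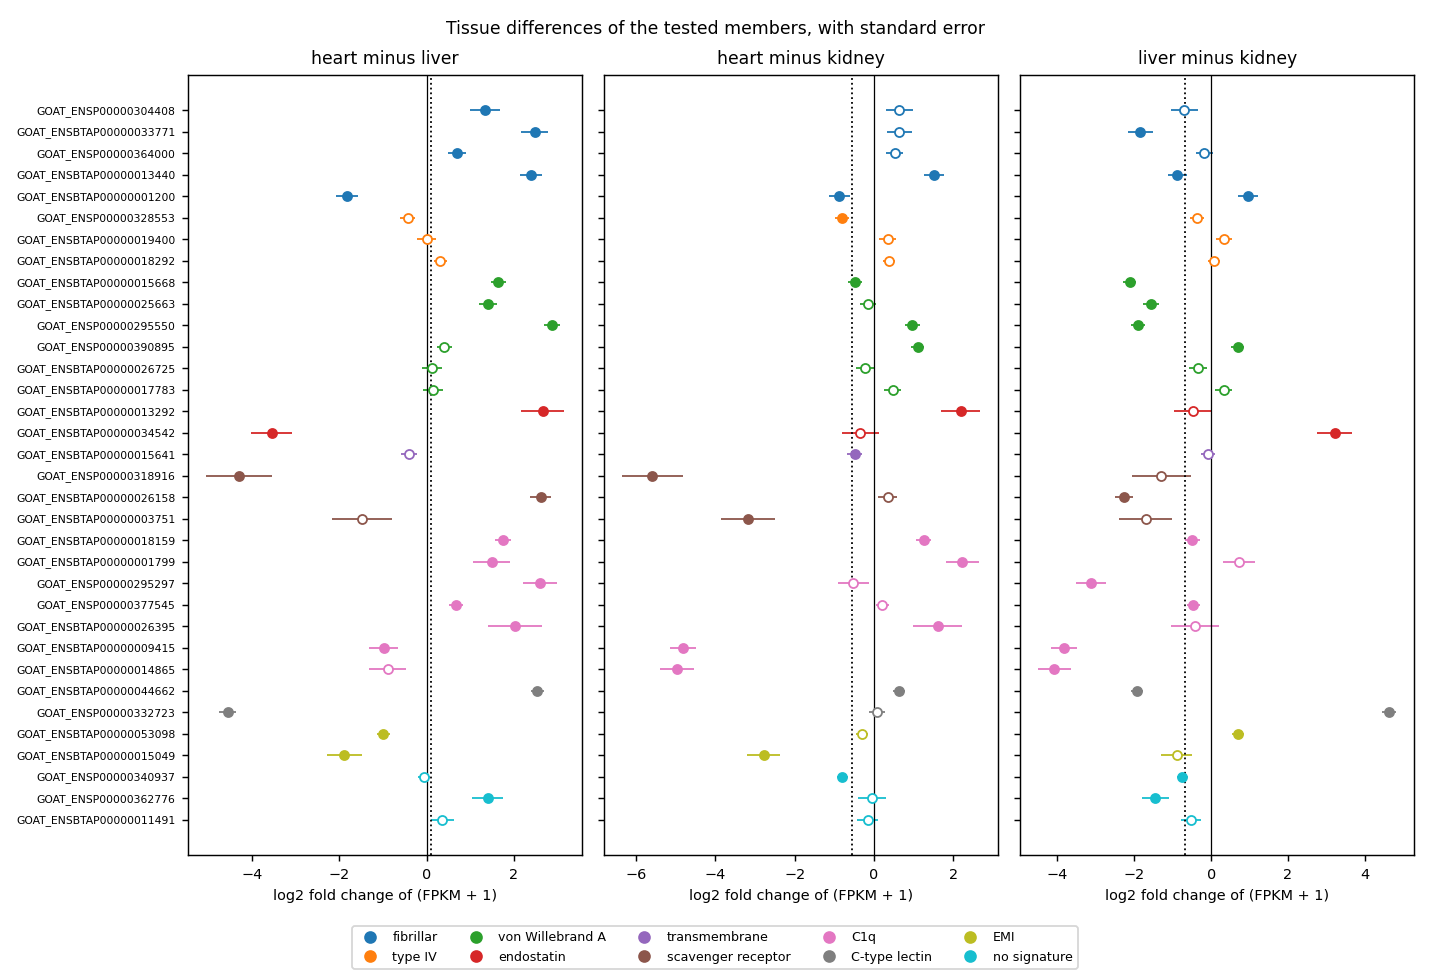
Log2 fold change of FPKM + 1 with its standard error for the 34 tested members in the 3 contrasts. Filled points were called at an adjusted p of 0.05, open points were not, and the dotted line is the median of all genes tested. The fibrillar and von Willebrand A points lie right of 0 in heart minus liver except for 1 fibrillar model at -1.82.

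Higher against both other tissues were 7 members in heart (14.5% of all genes met this), 4 in liver (9.59%) and 4 in kidney (34.2%), 15 in all, and 19 tested members were elevated in no tissue. The heart members were 1 fibrillar, 1 von Willebrand A, 1 endostatin, 3 C1q and 1 C-type lectin model. Those of liver were 1 fibrillar, 1 endostatin, 1 C-type lectin and 1 EMI model, and those of kidney were 1 von Willebrand A, 2 C1q and 1 model without a pattern. Without any 1 of the liver libraries 2 were elevated in liver, because the 2 models that entered through liver alone were no longer tested, and without the second or the third kidney library 2 were elevated in kidney. Under median ratio scaling 11 were elevated in heart and 2 in kidney, and with libraries scaled to the same sum of FPKM 4 were elevated in heart. The share of all genes elevated was computed only for the main fit. These counts therefore cannot be told apart from the shift of all genes between scalings.

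**Figure D5:**
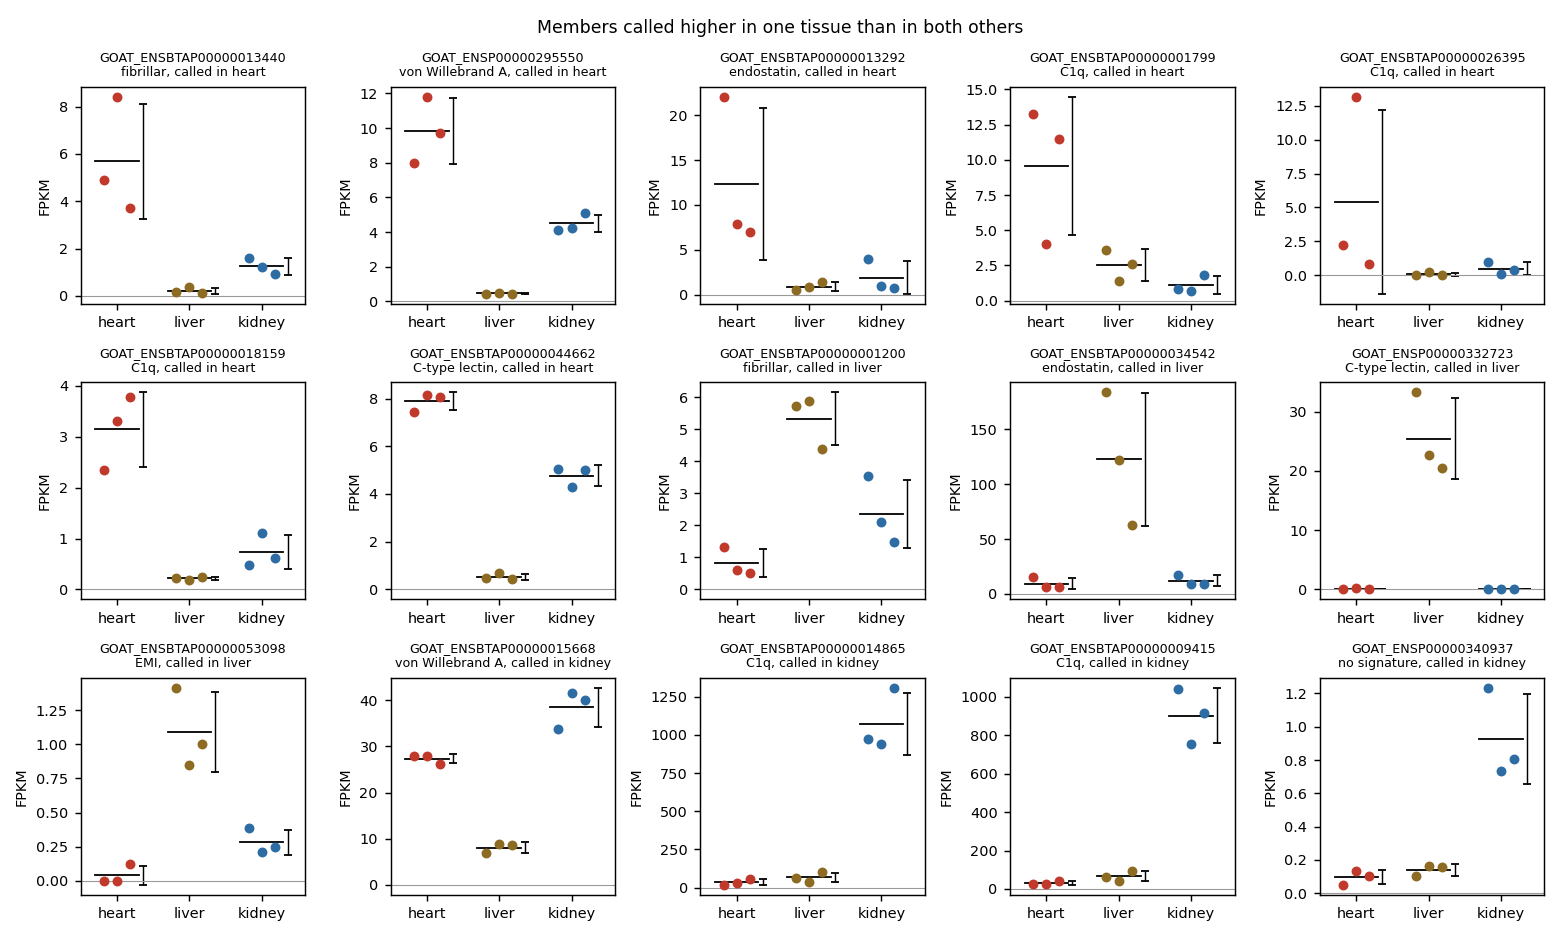
FPKM in each library (points), mean (line) and SD (bar at the side) of the 15 members called higher in one tissue than in both others. In most panels the libraries of the named tissue lie apart from the rest, while GOAT_ENSBTAP00000026395 rests on 1 heart library at 13.2 FPKM.

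Among the fibrillar collagens 5 of 7 models were tested, and all 5 were called between heart and liver, beside 49.2% of all genes. Of the 5 models, 4 were higher in heart, beside 29.6% of all genes. The highest was GOAT_ENSP00000304408, with the longest run of the set, 345 triplets. Its level was 45.5, 30.3 and 38.3 FPKM in the heart libraries, 14.9, 15.3 and 12.6 in liver, and 40.5, 24.1 and 13.5 in kidney. Every heart library was above every liver library, while kidney spanned both. The difference of heart against liver was 1.34 ± 0.35 (SE) with an adjusted p of 0.00987 (limma), which was 0.0557 after quantile normalization. Against kidney the difference was 0.64 ± 0.35 with an adjusted p of 0.134 (limma), or 1.19 relative to the all-gene median. Under median ratio scaling it was 1.30 with an adjusted p of 0.0228.

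The next fibrillar model, GOAT_ENSBTAP00000033771 with 341 triplets, stood at 38.7, 30.1 and 34.7 FPKM in heart, 5.92, 7.13 and 3.51 in liver and 34.7, 17.3 and 16.8 in kidney. Liver lay below both other tissues in all libraries, by 2.48 ± 0.32 against heart (adjusted p = 0.000153, limma) and with a liver minus kidney value of -1.84 ± 0.32 (adjusted p = 0.000814). Under median ratio scaling the latter was -1.02 with an adjusted p of 0.0585. Heart minus kidney was 0.64 ± 0.32 (adjusted p = 0.1045, limma), and 1.295 with an adjusted p of 0.0202 under median ratio scaling. The third abundant model, GOAT_ENSP00000364000 with 339 triplets, varied less: 8.97, 12.1 and 11.2 FPKM in heart, 6.27, 7.38 and 5.17 in liver and 7.73, 8.42 and 5.56 in kidney. Heart was higher than liver by 0.70 ± 0.21 (adjusted p = 0.0224, limma), a call lost under median ratio scaling (0.51, adjusted p = 0.0874), with libraries scaled to the same sum of FPKM (0.28, adjusted p = 0.303) and without heart library 2, heart library 3 or liver library 3 (adjusted p = 0.0688 to 0.0850). Against kidney its difference was 0.52 ± 0.21 with an adjusted p of 0.0566 (limma), and 0.02995 with the replicate number as a block. Under median ratio scaling this difference was 1.12 with an adjusted p of 0.00267.

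The other fibrillar models were lower and went opposite ways. GOAT_ENSBTAP00000013440, of 337 triplets, was at 4.90, 8.41 and 3.72 FPKM in heart, 0.162, 0.372 and 0.126 in liver and 1.61, 1.24 and 0.904 in kidney. Its heart libraries were above all others, with differences of 2.40 ± 0.26 against liver (adjusted p = 4.69e-05, limma) and 1.52 ± 0.26 against kidney (adjusted p = 0.000705). GOAT_ENSBTAP00000001200, whose longest run was 217 triplets, was instead highest in liver, with 5.72, 5.89 and 4.39 FPKM there, 1.31, 0.617 and 0.507 in heart and 3.54, 2.10 and 1.47 in kidney. It was 6.57-fold higher in liver than in heart by mean FPKM, a heart minus liver value of -1.82 ± 0.26 (adjusted p = 0.000334, limma), and 0.95 ± 0.26 higher in liver than in kidney (adjusted p = 0.0104). The other 2 models, with longest runs of 207 and 290 triplets, were not tested, and their highest tissue mean was 0.141 FPKM.

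The type IV models lay in pairs that point away from each other on a shared scaffold. On scaffold 894 the pair GOAT_ENSBTAP00000019400 and GOAT_ENSBTAP00000018292 began 388.8 kb apart with no model between, and on scaffold 127 the pair GOAT_ENSP00000328553 and GOAT_ENSBTAP00000028418 began 107.7 kb apart. The pairs differed in where they were detected. Of the scaffold 894 pair, GOAT_ENSBTAP00000019400 was detected in every library, at 1.13, 1.36 and 1.37 FPKM in heart, 1.99, 0.768 and 1.26 in liver and 0.971, 0.918 and 0.547 in kidney. No tissue stood apart from both others for it, although every heart library was above every kidney library. Its heart minus liver difference was 0.00 ± 0.21, and its heart minus kidney difference 0.34 ± 0.21 (adjusted p = 0.178, limma). Liver minus kidney was 0.34 ± 0.21 (adjusted p = 0.1755), and 0.78 with an adjusted p of 0.0259 under median ratio scaling. GOAT_ENSBTAP00000018292 was at 0.70, 0.56 and 0.70 FPKM in heart, 0.61, 0.20 and 0.21 in liver and 0.38, 0.23 and 0.21 in kidney. Its heart libraries were also above the kidney ones, by 0.38 ± 0.16 (adjusted p = 0.0578, limma). Under median ratio scaling this difference was 0.55 with an adjusted p of 0.0376.

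In the scaffold 127 pair both models were highest in kidney. GOAT_ENSP00000328553 was at 1.27, 0.613 and 0.525 FPKM in kidney and 0.214, 0.424 and 0.487 in liver, while heart had 0.0377 in 1 library and was listed at 0 in the others. Its heart minus kidney value was -0.81 ± 0.17 (adjusted p = 0.00294, limma), or -0.26 relative to the all-gene median. It entered the test through kidney alone. GOAT_ENSBTAP00000028418 was listed at 0 in all heart libraries, and stood at 0.134, 0.115 and 0.107 FPKM in liver and 1.11, 0.320 and 0.374 in kidney. Of the 3 type IV models tested, 0 were called by limma in the main fit between heart and liver (1 at an unadjusted p under 0.05) and 0 between liver and kidney (0 at an unadjusted p under 0.05). Of all genes tested 49.2% and 65% were called in these contrasts.

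Of the collagens with von Willebrand A domains 6 of 7 were tested. Between heart and liver 3 were called (50%, beside 49.2% of all genes), all higher in heart. Between liver and kidney 4 were called (66.7%, beside 65% of all genes). Of these 3 were higher in kidney, as were 51.6% of all genes tested. The largest change was that of GOAT_ENSP00000295550, a protein of 3171 residues with a Kunitz domain: 7.96, 11.8 and 9.72 FPKM in heart, 0.435, 0.483 and 0.446 in liver and 4.14, 4.26 and 5.09 in kidney. The tissues did not overlap. Its mean was 21.6-fold higher in heart than in liver, 2.88 ± 0.18 on the log2 scale (adjusted p = 1.13e-06, limma), and the heart level exceeded kidney by 0.97 ± 0.18 (adjusted p = 0.00129).

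The most abundant von Willebrand A models were neighbours on scaffold 971, on the same strand 131.6 kb apart, and shared 33.8% of residues outside their triplets. GOAT_ENSBTAP00000015668 was at 28.0, 27.9 and 26.2 FPKM in heart, 6.81, 8.95 and 8.54 in liver and 33.7, 41.7 and 40.1 in kidney. GOAT_ENSBTAP00000025663 was at 24.3, 23.8 and 21.7 FPKM in heart, 9.54, 8.001 and 6.92 in liver and 20.6, 30.2 and 27.7 in kidney. Both were lowest in liver in every library.

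Heart exceeded liver by 1.65 ± 0.17 for the first (adjusted p = 4.39e-05, limma) and by 1.41 ± 0.20 for the second (adjusted p = 0.000298). The first was also called higher in kidney than in heart, at -0.47 ± 0.17 with an adjusted p of 0.0388, but this was 0.07 above the all-gene median and turned to 0.20 under median ratio scaling. It was called in 3 of 9 fits that left out a library, and was not elevated in kidney under median ratio scaling or quantile normalization (-0.13, adjusted p = 0.463).

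GOAT_ENSP00000390895, of 2520 residues, had the opposite pattern in kidney. Its level was 1.47, 1.42 and 0.908 FPKM in heart, 0.989, 0.655 and 0.484 in liver and 0.119, 0.0136 and 0.0155 in kidney. Kidney lay below both other tissues in every library, by 1.10 ± 0.17 against heart (adjusted p = 0.000376, limma) and 0.69 ± 0.17 against liver (adjusted p = 0.00514). Between heart and liver its adjusted p was 0.0708 without and 0.0498 with the replicate block.

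The others, GOAT_ENSBTAP00000017783 and GOAT_ENSBTAP00000026725, had a different profile, with tissue means of 5.19 to 7.47 and 1.06 to 1.61 FPKM and no call in any contrast of the main fit. With the replicate block the former was called higher in heart than in kidney (0.47, adjusted p = 0.0333 against 0.0966 without it). Under median ratio scaling its heart minus kidney value was 1.035 (adjusted p = 0.0155, limma) and its liver minus kidney value 1.08 (adjusted p = 0.0143). The second Kunitz-bearing model, GOAT_ENSBTAP00000033767, was not tested and had its highest mean, 0.283 FPKM, in kidney.

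Collagens that end in an endostatin domain belong to basement membranes and release that domain as a fragment acting on blood vessels. The models of this class went opposite ways between heart and liver. GOAT_ENSBTAP00000034542 reached 184, 122 and 62.7 FPKM in liver, against 15.5, 6.31 and 6.39 in heart and 17.6, 9.29 and 8.57 in kidney. Every liver library was above every other one, although the highest and lowest liver libraries differed widely. By mean FPKM liver was 13.1-fold above heart and 10.4-fold above kidney, with a heart minus liver value of -3.56 ± 0.46 (adjusted p = 0.000173, limma) and a liver minus kidney value of 3.21 ± 0.46 (adjusted p = 0.000276).

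GOAT_ENSBTAP00000013292 was a heart transcript among these tissues, with 22.1, 7.90 and 6.94 FPKM in heart, 0.471, 0.809 and 1.40 in liver and 4.00, 0.947 and 0.763 in kidney. Heart libraries were above all others, by 2.67 ± 0.49 against liver (adjusted p = 0.00152, limma) and 2.19 ± 0.49 against kidney (adjusted p = 0.00354). The first library of each tissue was the highest in heart and in kidney but the lowest in liver.

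The transmembrane collagens, which span the cell membrane with the helix outside, were near the limit of detection. Only GOAT_ENSBTAP00000015641 was tested, at 0.107, 0.192 and 0.332 FPKM in heart, 0.382, 0.698 and 0.743 in liver and 1.10, 0.685 and 0.380 in kidney. Heart lay below both other tissues, with a heart minus kidney value of -0.49 ± 0.19 and an adjusted p of 0.0423 (limma), which was 0.0660 with the replicate block. This difference lay 0.05 above the all-gene median, and the call was lost under median ratio scaling (-0.29, adjusted p = 0.188), quantile normalization (-0.13, adjusted p = 0.516) and eBayes without a trend (adjusted p = 0.0566), and held in 2 of 9 fits that left out a library. The model of 395 residues, GOAT_ENSBTAP00000017548, was highest in the first kidney library at 1.13 FPKM, and the other was above 0 in a single kidney library.

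The scavenger receptors with a collagen-like stalk are surface receptors of macrophages and other cells that bind modified lipoproteins and bacteria. Of the 3 models, 2 were lowest in heart and had their highest mean in kidney, with an r of 0.909 between them over the 9 libraries, while the other was lowest in liver. GOAT_ENSP00000318916, with a run of 63 triplets, was at 0.118, 1.84 and 3.72 FPKM in heart, 47.7, 28.0 and 80.2 in liver and 38.0, 303 and 141 in kidney. Heart was below all other libraries, with values of -4.30 ± 0.77 against liver (adjusted p = 0.00125, limma) and -5.59 ± 0.77 against kidney (adjusted p = 0.000203). Liver and kidney overlapped, since the first kidney library lay below 2 of the liver libraries.

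GOAT_ENSBTAP00000003751 was at 1.21, 5.47 and 6.74 FPKM in heart, 12.6, 6.59 and 22.0 in liver and 15.8, 52.7 and 89.8 in kidney. It was called between heart and kidney only (-3.18 ± 0.69, adjusted p = 0.00301, limma). With the replicate block it was also called between heart and liver (adjusted p = 0.0240 against 0.106) and between liver and kidney (0.0101 against 0.0539). GOAT_ENSBTAP00000026158 differed from both, with 6.19, 9.17 and 10.6 FPKM in heart, 0.196, 0.865 and 0.638 in liver and 5.99, 7.05 and 6.27 in kidney. Liver was lowest, by 2.62 ± 0.24 against heart (adjusted p = 1.49e-05, limma) and with a liver minus kidney value of -2.27 ± 0.24 (adjusted p = 3.88e-05). Heart minus kidney was 0.35 ± 0.24 (adjusted p = 0.225), and 0.94 with an adjusted p of 0.00457 under median ratio scaling.

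The C1q-domain proteins, which include the chains of complement C1q and hormones of the adiponectin kind, held the most abundant members. On scaffold 130, GOAT_ENSBTAP00000014865 and GOAT_ENSBTAP00000009415 lay on the same strand 4.4 kb apart. The former was at 19.3, 33.4 and 54.6 FPKM in heart, 60.2, 38.2 and 102 in liver and 971, 939.6 and 1308 in kidney. The latter was at 23.9, 27.9 and 44.0 FPKM in heart, 65.0, 39.8 and 91.5 in liver and 1041, 753 and 916 in kidney. The lowest kidney library was far above the highest library of any other tissue for both.

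Kidney was 30-fold above heart and 16.1-fold above liver in mean FPKM for the former, and 28.3-fold and 13.8-fold for the latter. The heart minus kidney values were -4.97 ± 0.42 (adjusted p = 9.82e-06, limma) and -4.81 ± 0.33 (adjusted p = 2.55e-06), and relative to the all-gene median -4.42 and -4.27. Between heart and liver the latter was called at -0.98 ± 0.33 (adjusted p = 0.0339), in 5 of 9 fits that left out a library. The former had an adjusted p of 0.112, and 0.0270 with the replicate block. Over the 9 libraries their log2 values had a Pearson's r of 0.995, which mostly carries the tissue difference they share.

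Another C1q-domain model, GOAT_ENSBTAP00000014871, lay next to this pair on scaffold 130 with a longest run of 14 triplets, just outside the rule. Its kidney mean was 1561 FPKM against 58.6 in heart and 121 in liver. Just inside the rule, at 15 triplets, stood GOAT_ENSBTAP00000011491 with tissue means of 3.44, 2.33 and 3.86 FPKM in heart, liver and kidney. The other models at 14 triplets were GOAT_ENSP00000318195, with means of 76.2, 107 and 149 FPKM, and GOAT_ENSP00000380299, with 2.65, 0.791 and 6.04.

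The other C1q models called in heart were GOAT_ENSBTAP00000018159, GOAT_ENSBTAP00000001799 and GOAT_ENSBTAP00000026395. The first, the tested C1q model with the most triplets (146), was at 2.35, 3.30 and 3.78 FPKM in heart, 0.231, 0.188 and 0.235 in liver and 0.483, 1.11 and 0.612 in kidney. Heart exceeded liver by 1.75 ± 0.19 (adjusted p = 5.3e-05, limma) and kidney by 1.26 ± 0.19 (adjusted p = 0.000378), with no overlap. Its call between liver and kidney (-0.49, adjusted p = 0.0446) lay 0.20 above the all-gene median.

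GOAT_ENSBTAP00000001799 was at 13.3, 4.00 and 11.5 FPKM in heart, 3.62, 1.40 and 2.599 in liver and 0.816, 0.685 and 1.83 in kidney. Heart exceeded kidney by 2.23 ± 0.42 (adjusted p = 0.00132, limma) and liver by 1.49 ± 0.42 (adjusted p = 0.0146), and the second library was the lowest in all tissues. The call against liver was lost with libraries scaled to the same sum of FPKM (1.12, adjusted p = 0.0527) and without heart library 1, heart library 3 or liver library 2 (adjusted p = 0.0549 to 0.0584). With the replicate block liver was also called above kidney (0.73, adjusted p = 0.0423 against 0.149). For GOAT_ENSBTAP00000026395 the heart libraries were 2.19, 13.2 and 0.802 FPKM, the liver libraries 0, 0.203 and 0, and the kidney libraries 0.978, 0.0982 and 0.337. It was called above liver (2.03 ± 0.62, adjusted p = 0.0223, limma) and kidney (1.60 ± 0.62, adjusted p = 0.0466). Heart and kidney overlapped, and without the second heart library the values were 1.17 against liver and 0.75 against kidney, the latter with an adjusted p of 0.0715. The call against kidney held in only 2 of 9 fits that left out a library, and was lost with no filter (adjusted p = 0.0683) and with libraries scaled to the same sum of FPKM (adjusted p = 0.0656).

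GOAT_ENSP00000295297 was low in liver only, at 0.424, 0.203 and 0.440 FPKM, against 5.94, 7.03 and 8.84 in heart and 6.40, 23.5 and 8.01 in kidney. Heart exceeded liver by 2.599 ± 0.40 (adjusted p = 0.000475, limma), and liver minus kidney was -3.12 ± 0.40 (adjusted p = 0.000126). GOAT_ENSP00000377545 was also lowest in liver, at a lower level, with tissue means of 0.756, 0.0949 and 0.519 FPKM in heart, liver and kidney. Its heart minus liver value was 0.67 ± 0.16 (adjusted p = 0.00749, limma). Heart minus kidney was 0.20 ± 0.16 (adjusted p = 0.3045), and 0.43 with an adjusted p of 0.0369 under median ratio scaling. The 3 models not tested had highest tissue means of 1.25 FPKM (GOAT_ENSP00000305913, in kidney), 0.0114 and 0.00930.

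The C-type lectin models with a triplet stalk resemble collectins, soluble or membrane receptors that bind sugars on microbes. GOAT_ENSP00000332723 was a liver transcript. Its liver libraries stood at 33.3, 22.7 and 20.4 FPKM, while heart had 0.0825, 0.151 and 0.0748 and kidney 0.0769, 0.0702 and 0. Liver held 99.4% of the sum of its tissue means, the highest share of any tested member. The heart minus liver value was -4.55 ± 0.19 (adjusted p = 7.75e-08, limma) and the liver minus kidney value 4.63 ± 0.19 (adjusted p = 1.46e-07). It entered the test through liver alone.

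GOAT_ENSBTAP00000044662, of 672 residues, was instead lowest in liver, with 7.45, 8.14 and 8.07 FPKM in heart, 0.482, 0.673 and 0.423 in liver and 5.06, 4.28 and 4.99 in kidney. The tissues did not overlap and the spread within each was small. Heart exceeded liver by 2.54 ± 0.16 (adjusted p = 1.03e-06, limma) and kidney by 0.62 ± 0.16 (adjusted p = 0.0067). The latter was 0.29 with an adjusted p of 0.139 when libraries were scaled to the same sum of FPKM.

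A second lectin pair, GOAT_ENSP00000361366 and GOAT_ENSBTAP00000018649, lay on scaffold 1390, 86.5 kb apart on the same strand. The proteins shared 77.1% of 201 aligned residues outside the triplets, the highest share of any neighbouring members. The split of reads between them may be uncertain, which was not tested. The former was listed at 0 in all libraries, and the latter reached 0.241 FPKM in liver.

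EMI-domain proteins are glycoproteins of elastic fibres and vessel walls. GOAT_ENSBTAP00000015049, which also carries a C1q domain, was at 9.89, 8.34 and 10.99 FPKM in heart, 33.9, 37.2 and 45.1 in liver and 33.3, 97.7 and 117 in kidney. Heart lay below all other libraries, with values of -1.89 ± 0.41 against liver (adjusted p = 0.00393, limma) and -2.79 ± 0.41 against kidney (adjusted p = 0.000307). Liver and kidney overlapped, with an adjusted p of 0.0785 that became 0.0411 with the replicate block. GOAT_ENSBTAP00000053098 was highest in liver at 1.41, 0.847 and 1.00 FPKM, against 0.388, 0.214 and 0.245 in kidney, while heart had 0.122 in 1 library and was listed at 0 in the others. Its liver minus kidney value was 0.70 ± 0.15 (adjusted p = 0.00265, limma), and it entered the test through liver alone. The third model did not exceed 0.174 FPKM.

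Of the models without a pattern, 3 of 6 were tested. GOAT_ENSP00000362776, a protein of 1595 residues with 329 triplets in 23 runs, was at 2.77, 2.98 and 2.04 FPKM in heart, 0.378, 0.334 and 0.345 in liver and 6.09, 2.02 and 1.38 in kidney. Every liver library was below every other one. Heart exceeded liver by 1.40 ± 0.35 (adjusted p = 0.00836, limma), and liver minus kidney was -1.46 ± 0.35 (adjusted p = 0.00517), or -0.76 relative to the all-gene median. The latter call was lost after quantile normalization (-0.91, adjusted p = 0.0539).

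GOAT_ENSP00000340937, of 1457 residues and 184 triplets, was highest in kidney at 1.23, 0.733 and 0.808 FPKM, with at most 0.163 elsewhere. Heart minus kidney was -0.81 ± 0.14 (adjusted p = 0.000823, limma) and liver minus kidney -0.75 ± 0.14 (adjusted p = 0.00127). The latter lay 0.06 below the all-gene median on this scale, and the model entered the test through kidney alone. GOAT_ENSP00000335196 was not tested, and 2.83 FPKM in the third kidney library stood apart from 0.242 and 0.436 in the others. GOAT_ENSP00000410554, also not tested, had 0.06001, 0.538 and 1.49 FPKM in the heart libraries.

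Libraries with the same number deviated together across tissues, and the members are set here beside all genes for which number was the extreme one. Over all genes tested 23.9% were lowest in library 1 of all 3 tissues, but 2 of 34 members (5.88%) were, GOAT_ENSBTAP00000026158 and GOAT_ENSP00000295550. Library 1 was highest in all tissues for 4 members (11.8%, beside 4.70% of all genes), among them the liver endostatin model GOAT_ENSBTAP00000034542 and the type IV model GOAT_ENSBTAP00000018292. Library 3 was highest in all tissues for 3 members (8.82%, beside 14.3%), which were GOAT_ENSBTAP00000003751, GOAT_ENSBTAP00000014865 and GOAT_ENSBTAP00000015049. These counts are descriptions with no test.

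Neighbouring members were not alike in every case. The fibrillar pair GOAT_ENSP00000304408 and GOAT_ENSP00000364000 lay tail to tail on scaffold 1478, 19.4 kb apart, with 52.2% identity outside the triplets and an r of 0.777 over the 9 libraries. The von Willebrand A pair of scaffold 971 had an r of 0.962. The endostatin model GOAT_ENSBTAP00000034542, 375.2 kb away on the same scaffold with 5 models between, had an r of -0.919 with its neighbour GOAT_ENSBTAP00000015668. These correlations share the tissue structure of the libraries and are given without a test.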

How the data were processed

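Per the labels, strand-specific (dUTP) messenger RNA libraries were prepared from total RNA. According to the study's methods, the authors mapped filtered reads with TopHat to the goat genome CHIR_1.0 and quantified them with Cufflinks 2.2.1. The authors deposited log2 values, log2(FPKM + 1), from which FPKM was computed back. The deposited protein file gave sequence, scaffold, start, end and strand for 82.3% of goat identifiers, with its last entry cut off, and 51 of its proteins met the triplet rule, of which 1 had a copy suffix and 1 was not in the table. Groups came from the sample titles, and goat heart columns, whose names differ from the sample descriptions, were matched by tissue and number. No counts were held, so depth was unknown, and a value of exactly 0 may be a failed estimate. No label ties libraries to animals, although the paper describes several tissues sampled from each animal, so libraries of different tissues probably share animals. The main fit treats the libraries as independent, and its p-values measure the spread between these libraries.

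limma 3.58.1 (R 4.3.3) was fitted to log2(FPKM + 1) of all 9 libraries with 1 coefficient per tissue. Its eBayes step used the trend of variance with mean, and p-values were adjusted by Benjamini-Hochberg over all 13634 genes above 0.5 FPKM in at least 3 libraries. In simulated data for heart against liver over 13329 genes, 74.5% of 200 genes shifted by a log2 value of 2 were recovered with the right sign, and 5.7% of calls were false. The simulated noise was independent between libraries, and no other gene was changed. In the data 49.2% to 65% of genes were called, so these rates need not hold for the calls given here. Deviations from the tissue means correlated at 0.146 to 0.472 between same-numbered libraries in all 9 pairs, so the numbers were taken to pair the libraries, and values with the replicate block are given where a call changed.

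The members and lists were chosen with earlier results of these data known. Named were, per contrast, the 10 called members with the largest change, the 8 highest of each tissue, the 2 highest of each class, all of classes of 6 or fewer, and members within 500 kb of each other. Outside that rule, 7 other members and the 3 models with 14 triplets were described after their values were seen. Domain classes and counts by library number were also set after the files were examined, because no gene symbols were matched. The planned symbol-based family, pathway and marker lists, and 1 model per symbol, were therefore not analysed here.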

Additional observations from a re-analysis of the deposited data

How the results depend on the processing

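With the replicate block, 26 members were called between heart and liver, 19 between heart and kidney and 22 between liver and kidney. Without it these were 23, 18 and 19. Of all genes tested 56.5%, 69.3% and 70.9% were called with the block, against 49.2%, 63.2% and 65% without it. In all 9 of the members' calls changed, as given beside each. Every number occurs once in each tissue, so the block could change p-values but not the differences themselves. Leaving out 1 library at a time gave 18 to 24, 13 to 18 and 15 to 21 called members, with 5 to 9 elevated in heart, 2 to 4 in liver and 2 to 6 in kidney. The share of all genes called ranged over 40.8 to 53.5%, 54.6 to 68.1% and 55.7 to 66% in these fits. The study's filter (above 0.5 FPKM in over 80% of libraries) tested 19 members and called 13, 9 and 9, with 2 elevated in heart and 2 in liver, since fewer members were tested. Under that filter 47.7%, 63.3% and 63.5% of all genes were called. With no filter 7 were elevated in kidney. Median ratio scaling gave 11 elevated in heart and 2 in kidney, and scaling to the same sum of FPKM gave 4 in heart. Under median ratio scaling GOAT_ENSP00000340937 was no longer tested, and GOAT_ENSBTAP00000015668 was not called between heart and kidney (adjusted p = 0.301, limma). The cause of the changes in heart was not tested. The share of all genes elevated was computed only for the main fit, so elevated counts under other settings stand without it. An absolute log2 fold change of at least 1 left 11 calls between heart and kidney and 12 between liver and kidney, with 2 elevated in liver and 2 in kidney, and at least 30 triplets left 1 elevated in liver and 2 in kidney, both by construction. Of the 53 named calls 1 reversed, GOAT_ENSBTAP00000015668 between heart and kidney (0.20 under median ratio scaling). Among named calls still tested, 5 others were lost under median ratio scaling, 6 under quantile normalization and 4 with the same sum of FPKM. Fits that left out a library lost 1 to 6 each. The study's filter tested 27 of the named calls, and these held. Of all members' calls, 22 of 23, 14 of 18 and 14 of 19 were kept under median ratio scaling. With 3 libraries per tissue and no counts, levels under 0.5 FPKM are the least certain, and whether same-numbered libraries come from 1 animal is not stated in the labels.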
